A study of Zea mays with 2 samples.

Results

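Maize chromosomes 1 to 10 carry loci that the deposited tables list under gene symbols of the plastid and the mitochondrion, such as psbE, ndhK, cox1 or the numbered open reading frames of the mitochondrial genome. A locus was taken when it lies on chromosomes 1 to 10 and its primary gene name holds, in lower case, a symbol of the psa, psb, pet, ndh, atp, rpo, nad, rps, rpl, ycf, cox or orf series, or cemA, ccsA, matK, clpP, rbcL, cob or accD. The rule uses names and positions and no measured value, and it found 184 of the 39634 genes in the tables. RNA was sequenced from leaves of maize (Zea mays, strain Sugar 75) at the V5 stage, in 1 library from plants treated with a seaweed extract and 1 library from control plants. Each library is a pool of 3 samples. The series concerns drought, but the labels do not say which of the pooled plants were droughted. The label of the treated library calls it only a sample, and its group follows from the series text, which names 1 control and 1 treated library. There were no replicate libraries, so no test was possible, and every difference below is a difference between these 2 libraries.

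Plastids and mitochondria keep small genomes of their own, which encode subunits of the photosynthetic and respiratory complexes, parts of the organelle ribosomes and a few further proteins. Most other subunits of the same complexes are encoded in the nucleus, made in the cytosol and imported. Pieces of organelle DNA have moved into plant nuclear chromosomes over time, and such nuclear copies can be nearly identical to the organelle gene, so that a short read of an organelle transcript can match either place. Reads of near-identical copies can be split between loci, and the value of any single locus with a close copy is uncertain.

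The 184 loci were sorted by what their symbol names. A shared protein entry with a locus on an organelle chromosome of the same tables placed 133 of them. The RefSeq gene table placed 8, and 25 were assigned by hand from symbol and description. The other 18 had no such entry and no organelle gene number in RefSeq, and were taken as nuclear. This gave 43 loci with plastid symbols, 111 with mitochondrial symbols, 10 whose names or entries point to both organelles, and 20 taken as nuclear genes. The 20 include genes of the cytosolic ribosome. They also include rpl19, described as a chloroplastic 50S ribosomal protein, and rps14, described as succinate dehydrogenase. In all, 134 of the 184 shared a protein entry with a locus on an organelle chromosome. The tables also list 57 loci on the plastid chromosome and 124 on the mitochondrial chromosome, 45 and 110 of them with a symbol the rule would take, and all 181 are at 0 in both libraries. The files do not show whether reads of organelle transcripts were set aside or placed on nuclear copies, so the FPKM of the nuclear loci may include such reads, and this was not tested.

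Values are FPKM, the fragments of a locus divided by its length in kilobases and by the size of the library, and each difference is log2((treated + 1)/(control + 1)), which understates the difference of low genes. A locus counted as measured when it reached 1 FPKM in at least 1 library, and as higher or lower when its log2 ratio was at least 1 or at most -1. Of the 184 loci, 103 were measured, 15 stayed under 1 FPKM, 56 were listed at 0 in both libraries, and 10 were listed at 0 with a quantification status other than OK, which is a missing estimate. Only 13 genes in the whole tables had such a status. Among the 103 measured loci, 9 were higher in the treated library (8.74%, against 3.71% of all 16272 measured genes) and 8 were lower (7.77%, against 2.52%). With the libraries centred on the median gene, 9 of 102 were higher, against 2.09% of all genes, and 12 were lower, against 3.48%. With 0.1 FPKM added in place of 1, 9 of the 103 were higher, against 8.36% of all genes, and 9 were lower, against 4.04%. Among the 62 loci that reached 10 FPKM, 6 were higher (9.68%, against 6.41% of all genes at that level) and 5 were lower (8.06%, against 4.36%). The median log2 ratio of the 103 loci was 0.24 (quartiles -0.14 and 0.51), beside 0.22 for all measured genes.

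**Figure D1:**
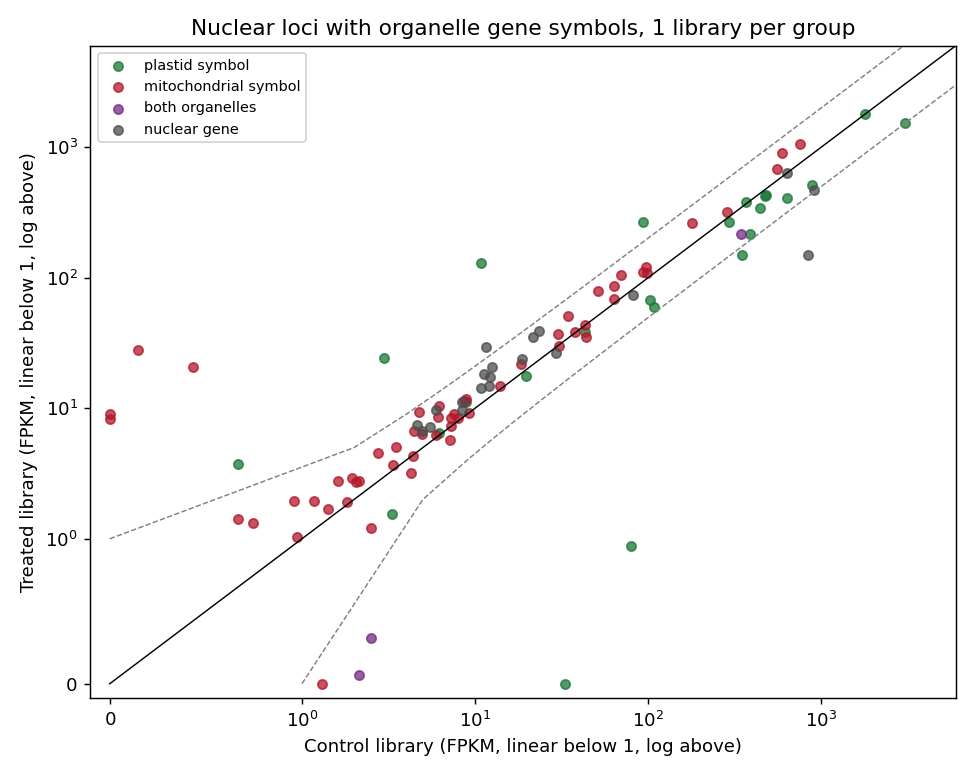
FPKM of each of the 103 measured loci in the treated library (vertical axis) against the control library (horizontal axis), both axes linear below 1 and logarithmic above; the solid line marks equal values and the dashed lines a log2 ratio of 1 and -1 with 1 FPKM added to each value. Colours give what the symbol names, and 9 loci lie at or above the upper dashed line and 8 at or below the lower one.

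Loci with plastid symbols had a median log2 ratio below the all-gene median of 0.22. Loci with mitochondrial symbols had one slightly above it. The 24 measured loci with plastid symbols had a median log2 ratio of -0.17 (quartiles -0.80 and 0.04), and 19 of them were under the all-gene median. Over all 43 loci with plastid symbols the FPKM summed to 7098 in the treated and 9716 in the control library. The 56 measured loci with mitochondrial symbols had a median of 0.29 (quartiles 0.08 and 0.53), and 34 lay above the median of all genes. All 111 loci with mitochondrial symbols summed to 4424 FPKM in the treated and 3307 FPKM in the control library. When both libraries were centred on the median gene, whose log2 ratio without a pseudocount was 0.27, the medians were -0.43 for plastid and 0.08 for mitochondrial symbols. The log2 ratio of the plastid sums was -0.45, and -0.25 without the single rps2 locus GRMZM2G013798. The difference between plastid and mitochondrial symbols was not tested. The 184 loci together held 5.81% of the summed FPKM of the treated library and 6.86% of that of the control library.

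**Figure D2:**
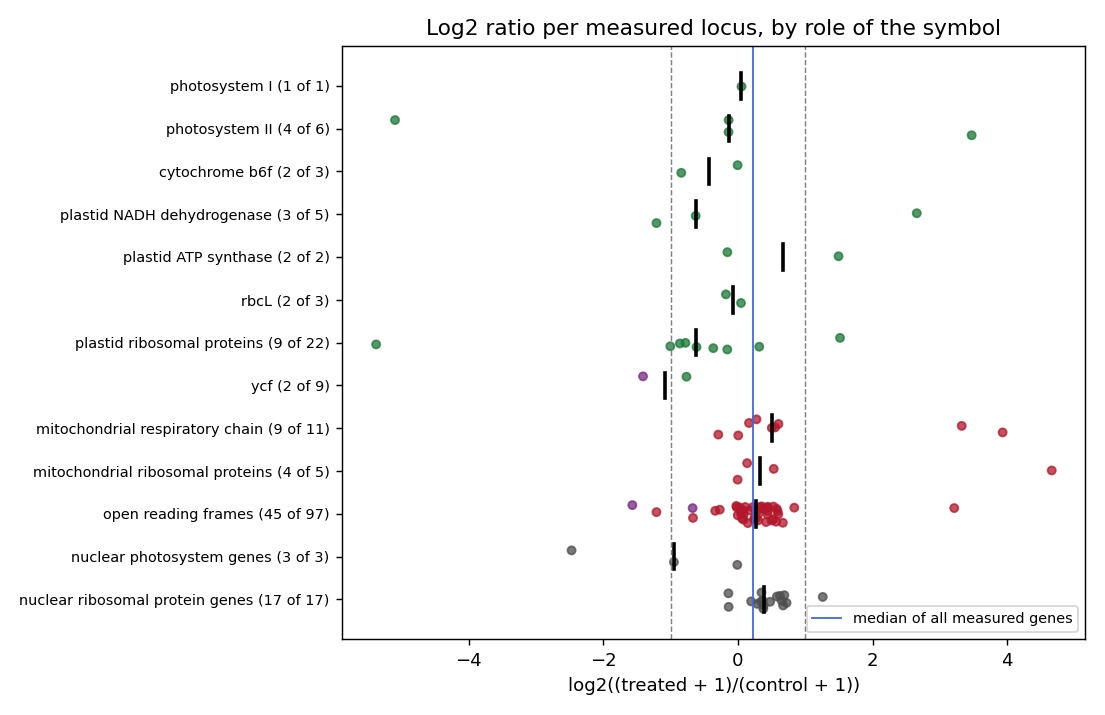
Log2 ratio, treated over control with 1 FPKM added, of each measured locus, in rows by the role of its symbol, with the number measured of the number found; black bars are row medians, the blue line is the median of all measured genes (0.22) and dashed lines mark -1 and 1. Green points carry plastid symbols, red mitochondrial, purple both, and grey nuclear genes; the plastid ribosomal row has 7 of 9 points below the blue line.

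The plastid ribosome is built from RNAs and proteins of which the rps and rpl genes of the plastid encode part. Of 22 nuclear loci with such symbols, 9 were measured, 7 of these were below the median of all genes, and their median log2 ratio was -0.62 (-0.88 after centring). The locus with the highest mean of all 184 was rps2 (GRMZM2G013798, chromosome 6, 160769883 to 160773894), which encodes a protein of the small subunit. It had 1533 FPKM (interval 1522 to 1543) in the treated library, against 3075 FPKM (3061 to 3089) in the control library. Its log2 ratio of -1.004 sits at the threshold, and its intervals imply 82687 and 200070 fragments, so that counting error is small beside the difference. Intervals here and below are the deposited ones for 1 library each, and cover neither plants nor pools.

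Further loci of this ribosome had lower values in the treated library without passing the threshold. The locus rps3 (GRMZM2G448151) had 67.2 FPKM in the treated and 103 FPKM in the control library (log2 ratio -0.62). For rpl22 (GRMZM2G015024), a large-subunit protein, the values were 59.3 FPKM in the treated and 109 FPKM in the control library (log2 ratio -0.86). In both of these the deposited intervals of the 2 libraries did not overlap. Over all 103 measured loci the intervals did not overlap in 35 with the treated library above, against 28.6% of all measured genes, and in 20 with it below, against 8.76%.

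The symbol rps15, another small-subunit protein, is carried by 10 loci, of which 4 were measured. The largest, GRMZM2G444541, had 345 FPKM in the treated and 445 FPKM in the control library, and its family description names NADH dehydrogenase subunit 1, not a ribosomal protein. GRMZM2G354804 had 0.950 FPKM (interval 0.582 to 1.32) in the treated library, against 79.8 FPKM (75.6 to 84.0) in the control library. This log2 ratio of -5.37 was the lowest of all 184 loci with 1 FPKM added, while with 0.1 FPKM added it was -6.25 and a psbE locus at 0 in the treated library (GRMZM2G062044) lay lower, at -8.38. The description of the locus names subunit H of the plastid NAD(P)H-quinone oxidoreductase. These 2 loci share protein entries, so their reads may not be told apart. The remaining measured loci had 17.7 and 11.3 FPKM in the treated library, against 19.8 and 8.86 FPKM in the control library. Summed over the 10 loci, rps15 had 376 FPKM in the treated and 554 FPKM in the control library, a log2 ratio of -0.56. The locus listed as rps12 (GRMZM2G474534), described as NADH dehydrogenase, was the only plastid ribosomal symbol called higher, with 3.77 FPKM in the treated and 0.668 FPKM in the control library (log2 ratio 1.52).

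Photosystem II splits water in the thylakoid membrane, and psbE encodes a subunit of its cytochrome b559. Its 3 nuclear loci share 1 protein entry and went in opposite directions. GRMZM2G108467 (chromosome 10) had 130 FPKM (interval 126 to 134) in the treated library, against 10.8 FPKM (9.68 to 12.0) in the control library, a log2 ratio of 3.47. GRMZM2G062044 (chromosome 3) was listed at 0 in the treated library, against 33.1 FPKM (29.1 to 37.1) in the control library, a log2 ratio of -5.09. The third, GRMZM2G117572 (chromosome 2), had 0.031 FPKM in the treated library and was at 0 in the control library. The sum over the 3 loci was 130 FPKM in the treated and 43.9 FPKM in the control library (log2 ratio 1.54), in the direction of the chromosome 10 locus.

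The loci of psbZ, a small subunit at the edge of photosystem II, stood together instead. GRMZM2G394732 had 435 FPKM in the treated and 479 FPKM in the control library, and GRMZM2G414660 had 269 FPKM in the treated and 296 FPKM in the control library, with a log2 ratio of -0.14 in both. The locus of psbA, which encodes the D1 protein of the reaction centre, has no estimate in either library. The psaI locus of photosystem I was low, with 6.42 FPKM in the treated and 6.20 FPKM in the control library.

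The cytochrome b6f complex carries electrons between the photosystems. Its petB locus (GRMZM2G463640, chromosome 5) was the highest of the 184 in the treated library, with 1790 FPKM (interval 1773 to 1808), against 1796 FPKM (1781 to 1812) in the control library, and these intervals overlap. Its petA locus (GRMZM2G448174), which encodes cytochrome f, had 215 FPKM in the treated and 387 FPKM in the control library (log2 ratio -0.84, past -1 after centring). The petD locus has no estimate. Loci with symbols of 1 complex thus differed among themselves.

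The plastid NADH dehydrogenase-like complex runs cyclic electron flow around photosystem I. The ndhJ locus (GRMZM2G404025) had 24.2 FPKM (interval 21.6 to 26.7) in the treated library, against 2.99 FPKM (2.17 to 3.82) in the control library, a log2 ratio of 2.66. The ndhK locus (GRMZM2G448142) had 151 FPKM in the treated and 350 FPKM in the control library, a log2 ratio of -1.21, and its description names the ATP synthase alpha/beta family. The ndhG locus (GRMZM2G335564) had 412 FPKM in the treated and 638 FPKM in the control library (log2 ratio -0.63). Its description names subunit H, as does that of the rps15 locus GRMZM2G354804 given above. Both ndhB loci stayed under 1 FPKM. By symbol, the 3 measured loci include 1 higher, 1 lower and 1 within the threshold, and the lower one is that with the ATP synthase description. Loci described as NADH dehydrogenase but listed under rps15 or rps12 are given above and not counted here.

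Of the plastid ATP synthase, which makes ATP from the proton gradient, atpH (GRMZM2G458118, chromosome 9), the subunit of the membrane ring, had 266 FPKM (interval 261 to 272) in the treated library, against 93.9 FPKM (90.9 to 96.8) in the control library. Its log2 ratio was 1.49. A locus that the symbol rule did not take, GRMZM2G391831, carries the same family description and went the other way. GRMZM2G391831 had 58.4 FPKM (interval 56.0 to 60.8) in the treated library, against 150 FPKM (146 to 154) in the control library. The log2 ratio of GRMZM2G391831 was -1.35, so the higher value of atpH does not hold for both loci with this description. Whether their reads can be told apart was not tested. The locus of atpB, a catalytic subunit, had 38.8 FPKM in the treated and 43.4 FPKM in the control library. The rbcL loci, named for the large subunit of the CO2-fixing enzyme Rubisco, showed no such difference: GRMZM2G448344 had 422 FPKM in the treated and 477 FPKM in the control library, GRMZM2G360821 had 381 FPKM in the treated and 369 FPKM in the control library, and the third stayed under 1 FPKM. Of the 9 loci with ycf names, 2 were measured and the larger had 1.54 FPKM in the treated and 3.31 FPKM in the control library.

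The mitochondrial respiratory chain passes electrons to oxygen and drives the mitochondrial ATP synthase. Of 11 nuclear loci with such symbols, 9 were measured, and 8 had a positive log2 ratio (6 after centring), with a median of 0.50 (0.24 after centring). The abundant ones had positive ratios without passing the threshold. The cox1 locus (GRMZM2G450825, chromosome 1), for the catalytic subunit of cytochrome oxidase, had 1069 FPKM in the treated and 755 FPKM in the control library. The cox2 locus (GRMZM2G109332) had 265 FPKM in the treated and 180 FPKM in the control library. For atp4 (GRMZM2G066111), an ATP synthase subunit, the values were 908 FPKM in the treated and 598 FPKM in the control library. Their log2 ratios were 0.50, 0.55 and 0.60. The atp6 locus (678 FPKM in the treated, 560 FPKM in the control library) and the nad7 locus of complex I (320 FPKM in the treated, 286 FPKM in the control library) had smaller ratios of 0.28 and 0.16, and nad7 falls below the median gene.

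The respiratory loci that passed the threshold were low or had a near copy. The cob locus GRMZM2G112030 (chromosome 4), for cytochrome b, had 20.9 FPKM (interval 19.8 to 21.9) in the treated library, against 0.435 FPKM (0.297 to 0.574) in the control library, a log2 ratio of 3.93, while the other cob locus was at 0 in both libraries. The cox3 locus GRMZM5G820250 (chromosome 9) had 9.01 FPKM in the treated library and was listed at 0 in the control library. Its partner GRMZM2G156536, less than a megabase away on the same chromosome, had 35.5 FPKM in the treated and 43.7 FPKM in the control library. Summed over both loci, cox3 had 44.5 FPKM in the treated and 43.7 FPKM in the control library, a log2 ratio of 0.03 (-0.24 for the plain ratio after centring). The sum thus does not show the difference seen at the single locus.

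The mitochondrial symbol rps7, a small-subunit ribosomal protein, has 3 loci. GRMZM5G880319 (chromosome 9) had 28.0 FPKM (interval 23.5 to 32.5) in the treated library, against 0.148 FPKM in the control library, where the interval starts at 0 and implies 1 fragment. Its log2 ratio of 4.66 was the highest of all 184 loci. GRMZM2G069427 had 50.6 FPKM in the treated and 34.7 FPKM in the control library, and GRMZM5G863208 had 7.27 FPKM in the treated and 7.29 FPKM in the control library. The sum was 85.9 FPKM in the treated and 42.2 FPKM in the control library (log2 ratio 1.01, and 0.76 for the plain ratio after centring).

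**Figure D3:**
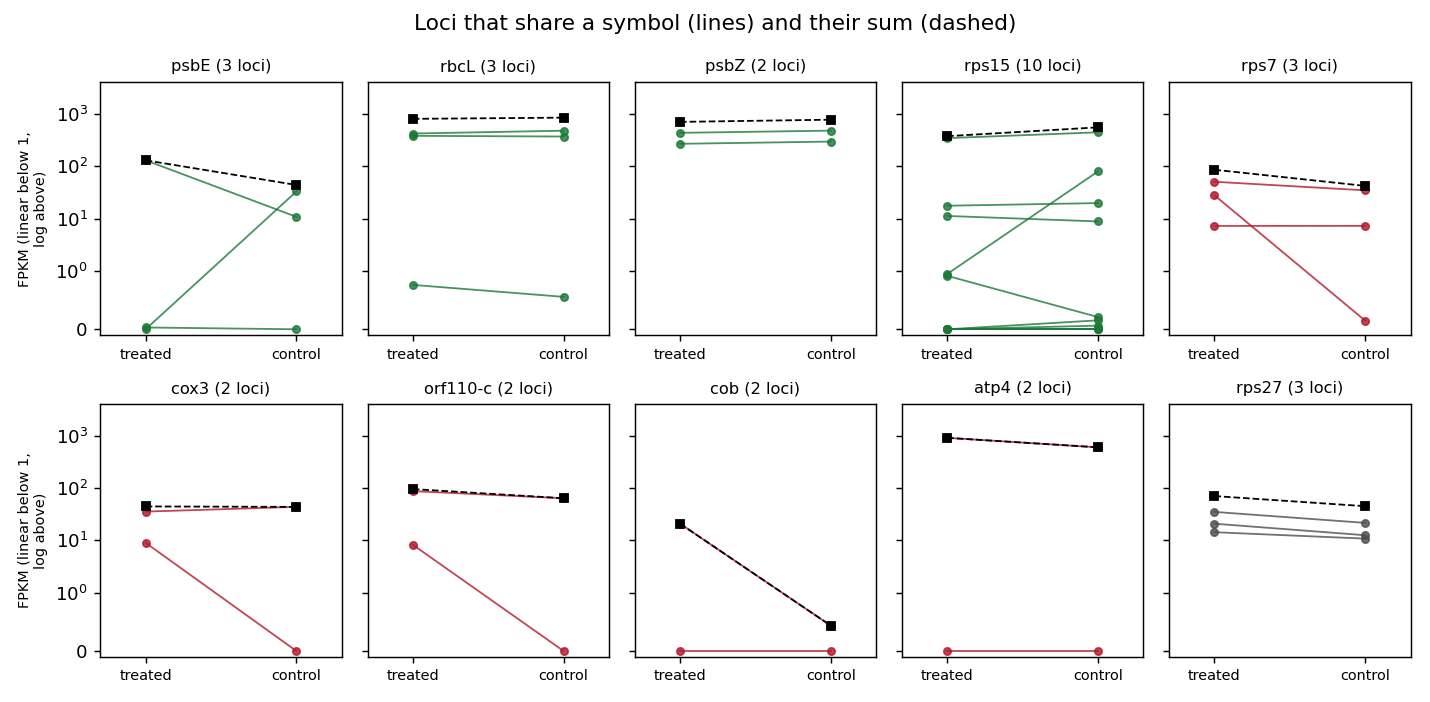
FPKM in the treated library (left in each panel) and the control library (right) for loci that share a symbol; each solid line is 1 locus, the dashed black line is their sum, and the axis is linear below 1 and logarithmic above. The psbE lines cross, the second cox3 and orf110-c loci are at 0 in the control library while their sums are nearly level or lie with the larger locus, and the psbZ, rbcL and rps27 lines run side by side.

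The numbered open reading frames are stretches of the mitochondrial genome with a predicted protein and mostly no known role. They gave 97 of the 184 loci under 61 different symbols, and 68 of the 97 spanned exactly the bases of their numbered codons and a stop. Of these 97, 45 were measured and 47 were at 0 in both libraries. Of the 45, 1 was higher (2.22%, against 3.71% of all measured genes) and 2 were lower (4.44%, against 2.52%). The median log2 ratio was 0.27, near that of all genes, and 0.03 after centring. The highest were orf186 (GRMZM2G357576, 122 FPKM in the treated and 97.3 FPKM in the control library), orf158-a2 (GRMZM2G469502, 111 FPKM in the treated and 93.9 FPKM in the control library) and orf111-a (GRMZM5G897562, 105 FPKM in the treated and 69.9 FPKM in the control library), leaving aside an orf247-ct locus (GRMZM2G309193) whose description names plastid ribosomal protein L2. That locus had 216 FPKM in the treated and 345 FPKM in the control library (log2 ratio -0.67), while the other orf247-ct locus had 10.4 FPKM in the treated and 6.17 FPKM in the control library.

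The only open reading frame called higher was again a second copy. GRMZM5G816243 (orf110-c, chromosome 9) had 8.27 FPKM in the treated library and was listed at 0 in the control library, beside GRMZM2G443343 with 87.2 FPKM in the treated and 63.8 FPKM in the control library. The sum over both was 95.5 FPKM in the treated and 63.8 FPKM in the control library (log2 ratio 0.57). The lower ones were faint, at 0 and 0.063 FPKM in the treated library, against 1.31 FPKM (orf119-a) and 2.15 FPKM (orf137-a-ct) in the control library. A further locus listed under orf137-a-ct and ycf72 had 0.316 FPKM in the treated and 2.50 FPKM in the control library and was also lower. Summed over loci of 1 symbol and origin, 90 of 119 symbols were measured, 7 were higher and 6 lower. Among all measured genes, taken singly, 3.71% were higher and 2.52% lower.

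The 20 loci taken as nuclear genes were all measured. Of the 3 photosystem genes among them, psb29 (GRMZM2G033885), also named Lhcb4 and described as the chlorophyll-binding antenna protein CP29, had 150 FPKM (interval 142 to 159) in the treated library, against 838 FPKM (802 to 874) in the control library, a log2 ratio of -2.47. The photosystem I gene psa6 (GRMZM2G012397) had 469 FPKM in the treated and 907 FPKM in the control library (log2 ratio -0.95), and psb3 had 636 FPKM in the treated and 641 FPKM in the control library. The 17 with ribosomal symbols had a median log2 ratio of 0.38 (0.14 after centring), and 14 lay above the median of all genes. The 3 rps27 genes of the cytosolic ribosome had 35.0, 20.9 and 14.3 FPKM in the treated library, against 21.6, 12.6 and 10.8 FPKM in the control library, in the same order. The only one past the threshold was rpl35A (GRMZM2G177098), with 29.3 FPKM in the treated and 11.7 FPKM in the control library (log2 ratio 1.26), and its description names a terpene synthase, beta-sesquiphellandrene synthase.

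Whether a locus was at 0 went with how many loci share its protein entry. Of the loci with an estimate, 54 of 100 that share an entry with another locus on chromosomes 1 to 10 were at 0 in both libraries, against 2 of 74 that do not. With mitochondrial symbols the counts were 48 of 68 and 2 of 43, and with plastid symbols 4 of 20 and 0 of 15. For the open reading frames they were 47 of 63 and 0 of 34. Among all other genes on these chromosomes, 683 of 1080 genes with a shared entry were at 0 (63.2%), against 10524 of 37693 without (27.9%), and 29.1% of all genes on chromosomes 1 to 10 were at 0. The shared loci were also shorter, with a median of 530 bases against 1418 bases for the single ones. Whether a 0 means no transcript or reads placed elsewhere was not tested.

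**Figure D4:**
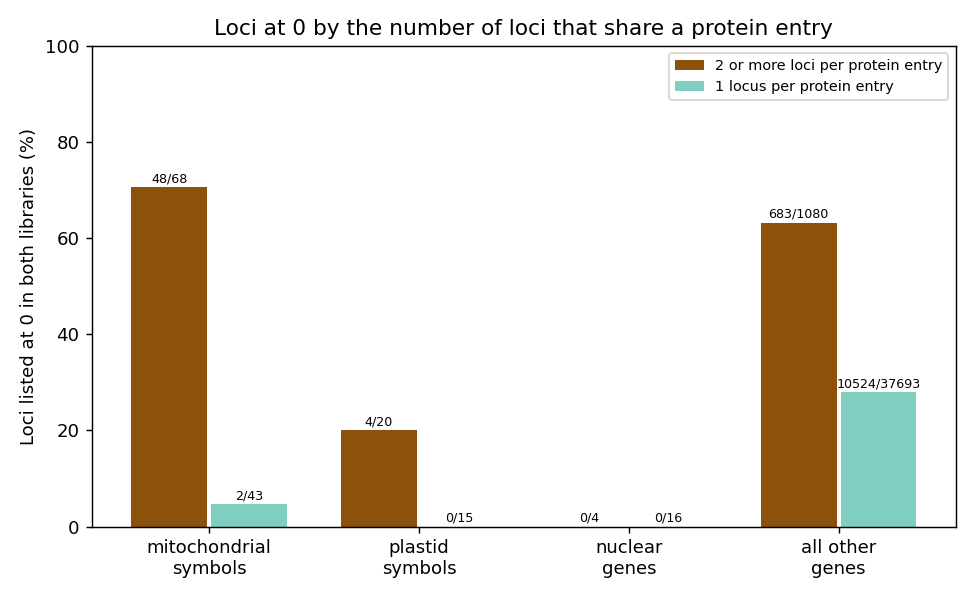
Share of loci listed at 0 in both libraries among loci whose protein entry is shared by at least 2 loci on chromosomes 1 to 10 (brown) and among loci with an entry of their own (blue-green), with counts above the bars; loci without an estimate are left out. The brown bar is higher for mitochondrial symbols (48 of 68 against 2 of 43), for plastid symbols (4 of 20 against 0 of 15) and for all other genes.

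The loci lay close together on the chromosomes. With members within 10 kb of each other joined, 96 of the 184 fell into 20 runs of at least 3, and 58 stood alone. Chromosome 9 carried 48 (1.60% of its genes) and chromosome 1 carried 41 (0.68%), while chromosome 8 carried 2 (0.06%). The blocks described next were delimited after their positions were seen.

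The largest block, on chromosome 1 from 234548617 to 234729616, held 30 loci, most with mitochondrial symbols, and cox1 among them. Of these, 22 were measured, 19 had a positive log2 ratio (14 after centring) and none passed the threshold. They summed to 1319 FPKM in the treated and 955 FPKM in the control library, most of it from cox1. Around cox1 the reading frames were low: orf129-a had 36.8 FPKM in the treated and 30.4 FPKM in the control library, orf99-f had 30.2 FPKM in the treated and 30.7 FPKM in the control library, and orf107-d, with the highest ratio of the block (0.84), had 9.32 FPKM in the treated and 4.78 FPKM in the control library. Toward the far end a stretch of loci, a cob copy among them, was at 0 in both libraries.

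**Figure D5:**
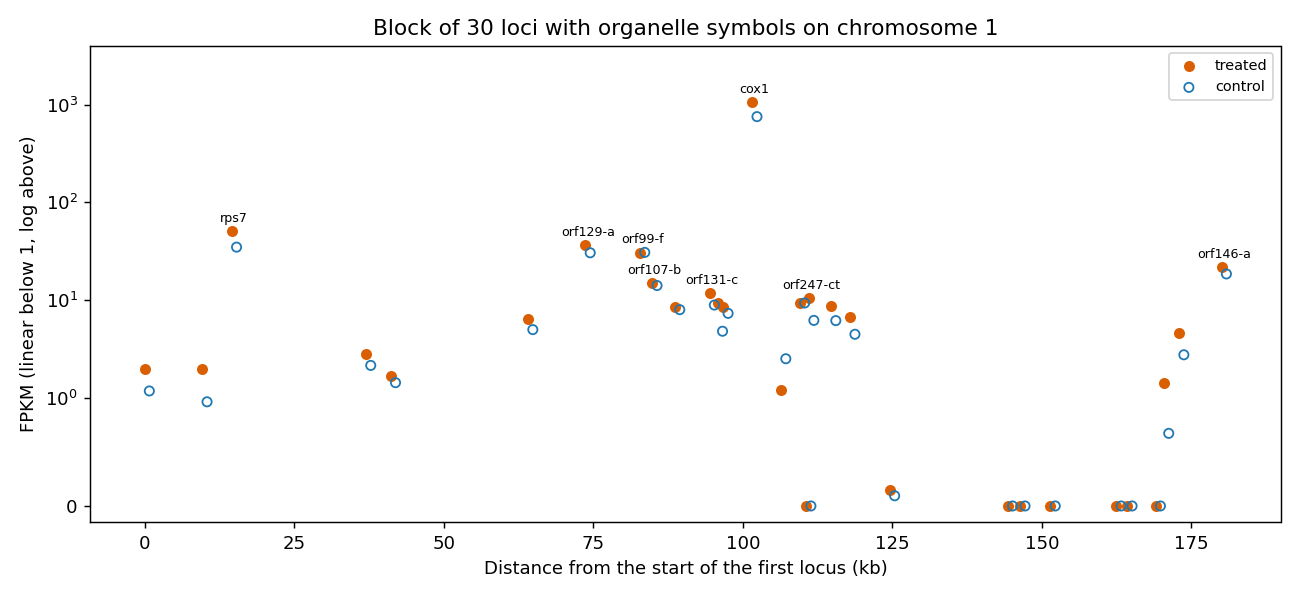
FPKM of the 30 loci of the chromosome 1 block in the treated library (filled) and the control library (open), against the distance in kb of each locus's centre from the start of the first locus, on an axis linear below 1 and logarithmic above; the points of the libraries are set slightly apart and loci at 10 FPKM or more are named. The cox1 pair (1069 treated, 755 control) stands far above the others, and 7 loci are at 0 in both libraries.

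A second mitochondrial block on chromosome 9 (72725457 to 73011570) held 28 loci, of which 15 were at 0 and 11 were measured. Of the 11, 3 were higher (27.3%, against 3.71% of all measured genes) and 1 was lower (9.09%, against 2.52%). The 3 higher ones are the cox3, rps7 and orf110-c loci above, each with another copy at higher values. On chromosome 3, blocks of 7 and 5 loci were entirely at 0. Of the runs with plastid symbols, that on chromosome 1 (203901792 to 203931405) held ndhK, rps3, petA and rbcL, which all had lower values in the treated library, with a sum of 855 FPKM in the treated and 1317 FPKM in the control library. On chromosome 10 a block of 5 went the other way in its sum, with 132 FPKM in the treated and 16.9 FPKM in the control library, nearly all of it from the psbE locus GRMZM2G108467. On chromosome 5 a block of 9 held 7 loci without an estimate and both psbZ loci.

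The authors' deposited table of genes lower in the treated library holds 5 of the loci among 631 genes in its longer list, and the authors' deposited table of higher genes holds 6 among 380, which is 0.79% and 1.58% of these lists, where the 184 loci make up 0.46% of all genes. That base includes genes at 0 in both libraries or without an estimate, 56 and 10 of the 184 loci. Among measured genes the loci were 103 of 16272, so the 0.46% is not a like base for these lists. The authors' deposited table gives a q-value of 0.00995 for 8 of these 11, and the others, psb29, orf119-a and the orf137-a-ct locus GRMZM2G108251, have q-values of 0.530, 0.324 and 0.312 in the authors' deposited table. A comparison of 1 library with 1 compares those libraries, not the conditions.

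Other genes of the same complexes, found on chromosomes 1 to 10 by their descriptions, were set beside these loci. Among all measured genes, 3.71% were higher and 2.52% lower. Of 50 measured photosystem I and II subunit genes, 26 were lower and 0 higher, with a median log2 ratio of -1.06. Of 11 measured genes of the plastid NAD(P)H dehydrogenase, 4 were lower and 0 higher (median -0.57), and of 9 genes of the plastid ATP synthase and cytochrome b6f complex 2 were lower (median -0.65). These lists include loci described as plastid subunits that carry no symbol, such as an NDH subunit 6 locus (GRMZM2G070573) with 1.74 FPKM in the treated and 68.6 FPKM in the control library. Of 45 genes for 30S and 50S ribosomal proteins 0 were higher and 0 lower (median 0.10), beside 1 higher and 2 lower of the 9 measured loci with plastid ribosomal symbols. The sets are unlike, as the 45 were found by description and the 9 by symbol. Of the 9, the higher locus (rps12) and 1 of the lower ones (rps15) are described as NADH dehydrogenase or a subunit of it. The other lower one, rps2, had a log2 ratio of -1.004. The difference between the sets was not tested. Of 98 genes of the mitochondrial respiratory chain 2 were higher and 1 lower (median 0.19), and of 15 genes for sigma factors and plastid transcription 1 was lower (median 0.42).

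The libraries summed to 230054 FPKM (treated) and 233809 FPKM (control), and the FPKM that a single fragment stands for was 1.25 times larger in the treated one, the shallower of the pair. Leaf genes of the C4 pathway and of photosynthesis were present in both libraries: pep1, me3, ssu1, RCA1 and CAB1 had 1262, 591, 36.1, 255 and 1419 FPKM in the treated library, against 1747, 944, 161, 488 and 1530 FPKM in the control library. The lower values of these leaf genes move in the same direction as the plastid symbols, and their part in that result was not tested. Seed zein genes (41) summed to 19.5 FPKM in the treated and 14.1 FPKM in the control library, and pollen genes (88) to 7.06 FPKM in the treated and 5.60 FPKM in the control library. In pooled leaf tissue, fewer cells of a type and less RNA per cell cannot be told apart.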

How the data were processed

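The authors deposited, per the file headers, 1 FPKM value per gene and library with an interval and a status, and tables of their own comparison with a log2 fold change, a p-value and a q-value. Cufflinks 2.2.1, Cuffdiff, Picard 1.115, Bowtie2 2.2.6, TopHat2 2.1.0 and cutadapt 1.8.1 are named in the submitters' processing notes, with no role. The sources used here name no genome build. Per the labels, 2 technical replicates were analysed, and how they entered the values is not given. RNA came from the NucleoSpin RNA Plant kit, per the labels' protocols. A further 8 FPKM columns match no library by name and were left out. FPKM keep no library totals, so depth was read from the intervals, whose upper half-width was taken as 2 standard errors of a counted number; measured loci had a median of 221 implied fragments in the treated and 211 in the control library. At some abundant loci the implied fragments did not follow FPKM as counts would. For psb29 they were 1343 at 150 FPKM (treated) and 2197 at 838 FPKM (control). For cox1 they were 2253 at 1069 FPKM (treated) and 2244 at 755 FPKM (control). The implied numbers of such loci cannot be read as counts, and no interval covers plants or pools.

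Log2 ratios used the values as deposited with 1 FPKM added, and loci at 0 stayed in. No count test was run. The calling step was tested on simulated data. The deposited starts count from 0 and were written with 1 added. Loci named are those at 10 FPKM or more past the threshold, the 10 with the highest mean, those of symbols with at least 3 measured loci and those in runs; other loci were named after their values were seen, and 1 locus the rule names is not reported here. The members and lists were chosen with earlier results of these data known. Alternatives were other pseudocounts (0.1, 5), other minimums (5, none), centring on the median gene, equal summed FPKM, whole-word symbols, and loci left out. Sequences were not used here. Tools were Python 3.11.15, pandas 2.3.3, numpy 2.4.6 and matplotlib 3.10.9.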

Additional observations from a re-analysis of the deposited data

How the results depend on the processing

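No paired analysis was possible because each group has 1 library, and for the same reason no replicate could be left out. The count of loci called lower was 8 of 103, against 2.52% of all measured genes. It was 5 with a pseudocount of 5 FPKM (all genes 0.996%) and 5 of 82 with a minimum of 5 FPKM (3.14%). It was 4 of 58 with whole-word symbols, which leave fewer loci (2.52%), and 12 of 102 after centring (3.48%). The count called higher stayed within 1.5 times of 9 under every alternative run, but the share of all genes moved. With a pseudocount of 0.1 FPKM, 9 of 103 loci were higher (8.74%), against 8.36% of all measured genes, which was 3.71% in the main setting. Symbols called lower as sums numbered 6; they were 3 with a pseudocount of 5 FPKM, 3 with a minimum of 5 FPKM, 10 after centring and 2 with whole-word symbols. The median log2 ratio of all members was 0.24; it was 0.00 with no minimum, where zeros enter, and -0.014 after centring. For plastid symbols the median was -0.17, 0.00 with no minimum and -0.43 after centring. For mitochondrial symbols it was 0.29, 0.00 with no minimum and 0.078 after centring. The log2 ratio of the plastid sums was -0.45, -0.72 after centring and -0.25 without GRMZM2G013798, the rps2 locus; that of the mitochondrial sums was 0.42, and 0.15 after centring. The 11 loci past the threshold at 10 FPKM or more kept their direction and stayed past it after centring. Leaving out GRMZM2G013798 or the nuclear genes, and the values by plastid and mitochondrial symbol, were added after seeing the data. The depth of 1 library each limits faint loci most.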
